A study of Mus musculus with 12 samples.

Results

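The nuclear-encoded subunits of oxidative phosphorylation were followed through 4 states of mouse CD8+ T cells. Members were taken by symbol: names of the Nduf a, b, c, s and v families followed by a digit, Sdha to Sdhd, the Uqcr genes, Cox4 to Cox8 and the Atp5 genes, without names that contain -ps. The rule found 88 of the 55291 gene symbols in the count table, 40 of them named for complex I, 4 for complex II, 8 for complex III, 19 for complex IV and 17 for complex V. 4 of the 88, Ndufs6b, Cox6c2, Ndufb4c and Ndufa11b, are annotated as processed pseudogenes in GENCODE M21, and 84 are protein-coding. NDUFA4 is counted under complex I by its name, although its protein is now placed in complex IV.

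Oxidative phosphorylation passes electrons from NADH (complex I) and succinate (complex II) through complex III to oxygen at complex IV, and the proton gradient built on the way drives ATP synthase (complex V). Most subunits are encoded in the nucleus and imported, and a core set is encoded by mitochondrial DNA, with no such member in complex II. Naive T cells are small resting cells, and T cells that are activated grow, divide and expand their mitochondria.

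All cells were CD8+ T cells of wild-type (WT) male mice, isolated from lymph nodes and spleen. In all, 3 groups of 3 libraries were taken at day 4, after 2 days on plate-bound anti-CD3 with soluble CD28, 1 day of expansion in recombinant mouse IL-2, and 24 h in a rat tail collagen gel (RatCol) at 2 mg/mL, in a bovine collagen gel (Nutragen) at 2 mg/mL, or in media without a gel. The last group of 3 libraries was naive cells lysed directly at day 0. Activation and IL-2 are therefore shared by all day 4 groups, and day, activation and IL-2 all separate them from naive cells. The labels give 3 mice per group and do not say whether libraries of different groups share a mouse, so each p-value measures the spread between these libraries.

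The libraries held 28483064 to 53138362 counts each. The 6 CD8 T cell markers (Cd3d, Cd3e, Cd3g, Cd8a, Cd8b1 and Trac) summed to 2050, 2160 and 2310 CPM (read counts scaled to the library total after TMM factors) in rat tail collagen, 2670 to 2900 in bovine collagen, 2640 to 2920 in media and 3440 to 4140 in naive cells. 3 of the 6, Cd3d, Cd3g and Trac, fell in rat tail collagen against media. The 5 myeloid markers summed to 1.51 to 3.35 CPM in rat tail collagen, 2.16 to 4.30 in media and 28.2 to 117 in naive cells, and the 4 B cell markers to 0.938 to 1.57, 0.513 to 0.554 and 3.06 to 5.09 CPM in the same 3 groups. The 4 red cell markers summed to 1.2 to 2.51 CPM in rat tail collagen, 0.0214 to 0.191 in media and 1.13 to 9.58 in naive cells. Of the 5 stromal markers, which summed to 71.2 to 76.9 CPM in rat tail collagen, 130 to 147 in media and 140 to 170 in naive cells, nearly all counts were Pecam1, and the mean of Col1a1 was 4.29 CPM in rat tail collagen, against 0.311 CPM in media. Ribosomal RNA took 11%, 5.03% and 13.2% of counts in the rat tail collagen libraries, 6.41%, 11.9% and 5.50% in bovine collagen, 4.45% to 4.72% in media and 3.96% to 5.67% in naive cells. The part of other cell types and of rRNA in the results that follow was not tested beyond the values given beside them. In bulk RNA, fewer cells of a type and less RNA per cell cannot be told apart.

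Taken as a sum, transcripts of the 84 protein-coding members were more abundant after activation and differed little between the day 4 groups. They reached 5450, 5410 and 5570 CPM in rat tail collagen, 6410, 5560 and 5360 in bovine collagen, 6830, 5640 and 5440 in media, and 4420, 4560 and 5180 in naive cells. Every day 4 library lay above every naive library, and the rat tail collagen libraries lay within the range of the bovine collagen libraries. Media replicate 1 and bovine collagen replicate 1 stood above the other libraries of their groups, and naive replicate 3 above the other naive libraries. Among the 84 members, media had the highest group mean for 33, rat tail collagen for 28, naive cells for 12 and bovine collagen for 10, and Cox8c had no count at all. The lowest mean fell in naive cells for 51, in rat tail collagen for 22, in bovine collagen for 7 and in media for 1, and 3 members (Cox7b2, Cox8b and Cox8c) tied at 0 in several groups.

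**Figure D1:**
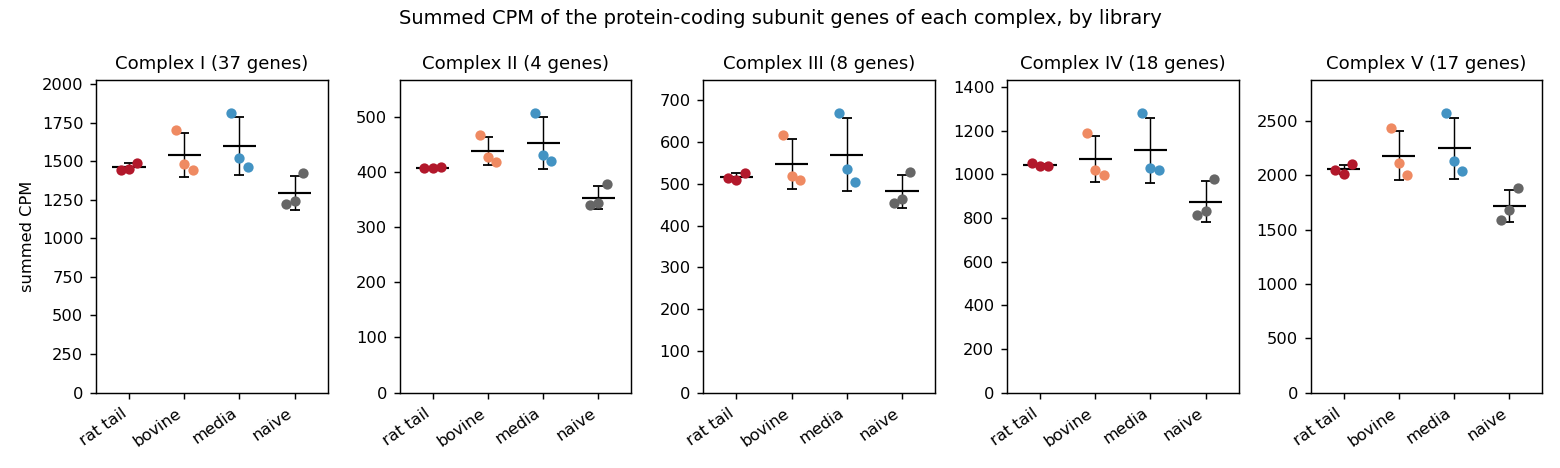
Summed CPM of the protein-coding members of each complex in rat tail collagen, bovine collagen, media and naive libraries. Points are libraries, the horizontal line is the mean and the bar its SD (n = 3). For complex II the rat tail collagen libraries sit at 406 to 409 CPM, the media libraries at 420 to 506 and the naive libraries at 339 to 377.

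By complex, complex I members summed to 1460 ± 26.2 CPM in rat tail collagen, 1540 ± 140 in bovine collagen, 1590 ± 188 in media and 1290 ± 108 in naive cells (SD, n = 3). Complex V, which held the largest sum, stood at 2050 ± 45.6, 2180 ± 222, 2250 ± 283 and 1720 ± 148 CPM in those groups. Complex IV stood at 1040 ± 4.69 CPM in rat tail collagen, 1070 ± 108 in bovine collagen, 1110 ± 145 in media and 876 ± 92.1 in naive cells. Complexes II and III showed the same order of group means, with naive cells lowest and media highest. Per kilobase of exon, Cox6a1 held the highest level of any member in rat tail collagen (185 CPM per kb) and Atp5a1 in media (179 CPM per kb). Cox7a2l did so in naive cells (179 CPM per kb). The length used joins all annotated exons of a gene, 702 bases for Cox6a1, 3135 for Atp5a1 and 4237 for Atp5b. It can exceed the length of the transcript made, so this ranking depends on the annotation.

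Tests used edgeR's quasi-likelihood test over all genes that passed its filter on low counts, and a member was called at a Benjamini-Hochberg adjusted p under 0.05. In each comparison 82 of the 88 members passed the filter. The 6 that did not were Ndufa4l2, Cox4i2, Cox6a2, Cox7b2, Cox8b and Cox8c, and Cox8c had no count in any library. Comparisons share libraries: rat tail collagen enters 3 of the 5, and media enters 3.

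Most subunits were higher in activated cells than in naive cells. In media against naive cells, 56 of 82 members rose and 2 fell, or 68.3% and 2.44%, against 31.6% higher and 29.2% lower among all 18610 genes tested. The median log2 fold change of the members was 0.40, against -0.00336 for all genes. The median rise was 0.53 on the log2 scale, 4 calls reached 2-fold, and 27.1% of all genes did so. By complex, 23 of 39 tested complex I members rose and 1 fell, 3 of 4 rose in complex II, 6 of 8 in complex III, 13 of 14 in complex IV, and in complex V 11 of 17 rose and 1 fell. The complex IV median was the largest at 0.64, beside 0.60 for complex II, 0.40 for complex V, 0.37 for complex III and 0.35 for complex I. Without media replicate 1, the highest library, 48 rose and 5 fell, where 5802 of all genes rose and 5508 fell. Myeloid and B cell marker sums, given above, were lower in media in the same comparison.

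In the rat tail collagen gel, subunits differed from media in both directions. Against media, 8 of 82 members rose and 23 fell, or 9.76% and 28.0%, where 29.7% of all 19392 genes tested rose and 28.7% fell. The share that fell was thus close to that of all genes, and the share that rose was below it. The members' median was -0.10, against -0.01 for all genes, and the median absolute log2 fold change was 0.20 in members and 0.47 in all genes. With 1 library left out, the members' median ran from -0.15 (without media replicate 3) to -0.02 (without media replicate 1). All but 1 of the called differences were under 2-fold, whereas 22.9% of all genes were called at 2-fold or more. Complex I had 3 higher and 12 lower of 39, complex II 1 lower of 4, complex III 2 lower of 8, complex IV 3 higher and 2 lower of 14, and complex V 2 higher and 6 lower of 17. The count of higher members was 5 without media replicate 2, media replicate 3, rat tail collagen replicate 1 or rat tail collagen replicate 2, and 11 without media replicate 1. With rat tail collagen replicates 1 and 3 and bovine collagen replicate 2 left out for their rRNA share, 2 were higher and 10 lower, on 1 rat tail collagen library. Offsets for GC content and length gave 15 higher and 30 lower, where 4710 of all genes were higher and 5974 lower.

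**Figure D2:**
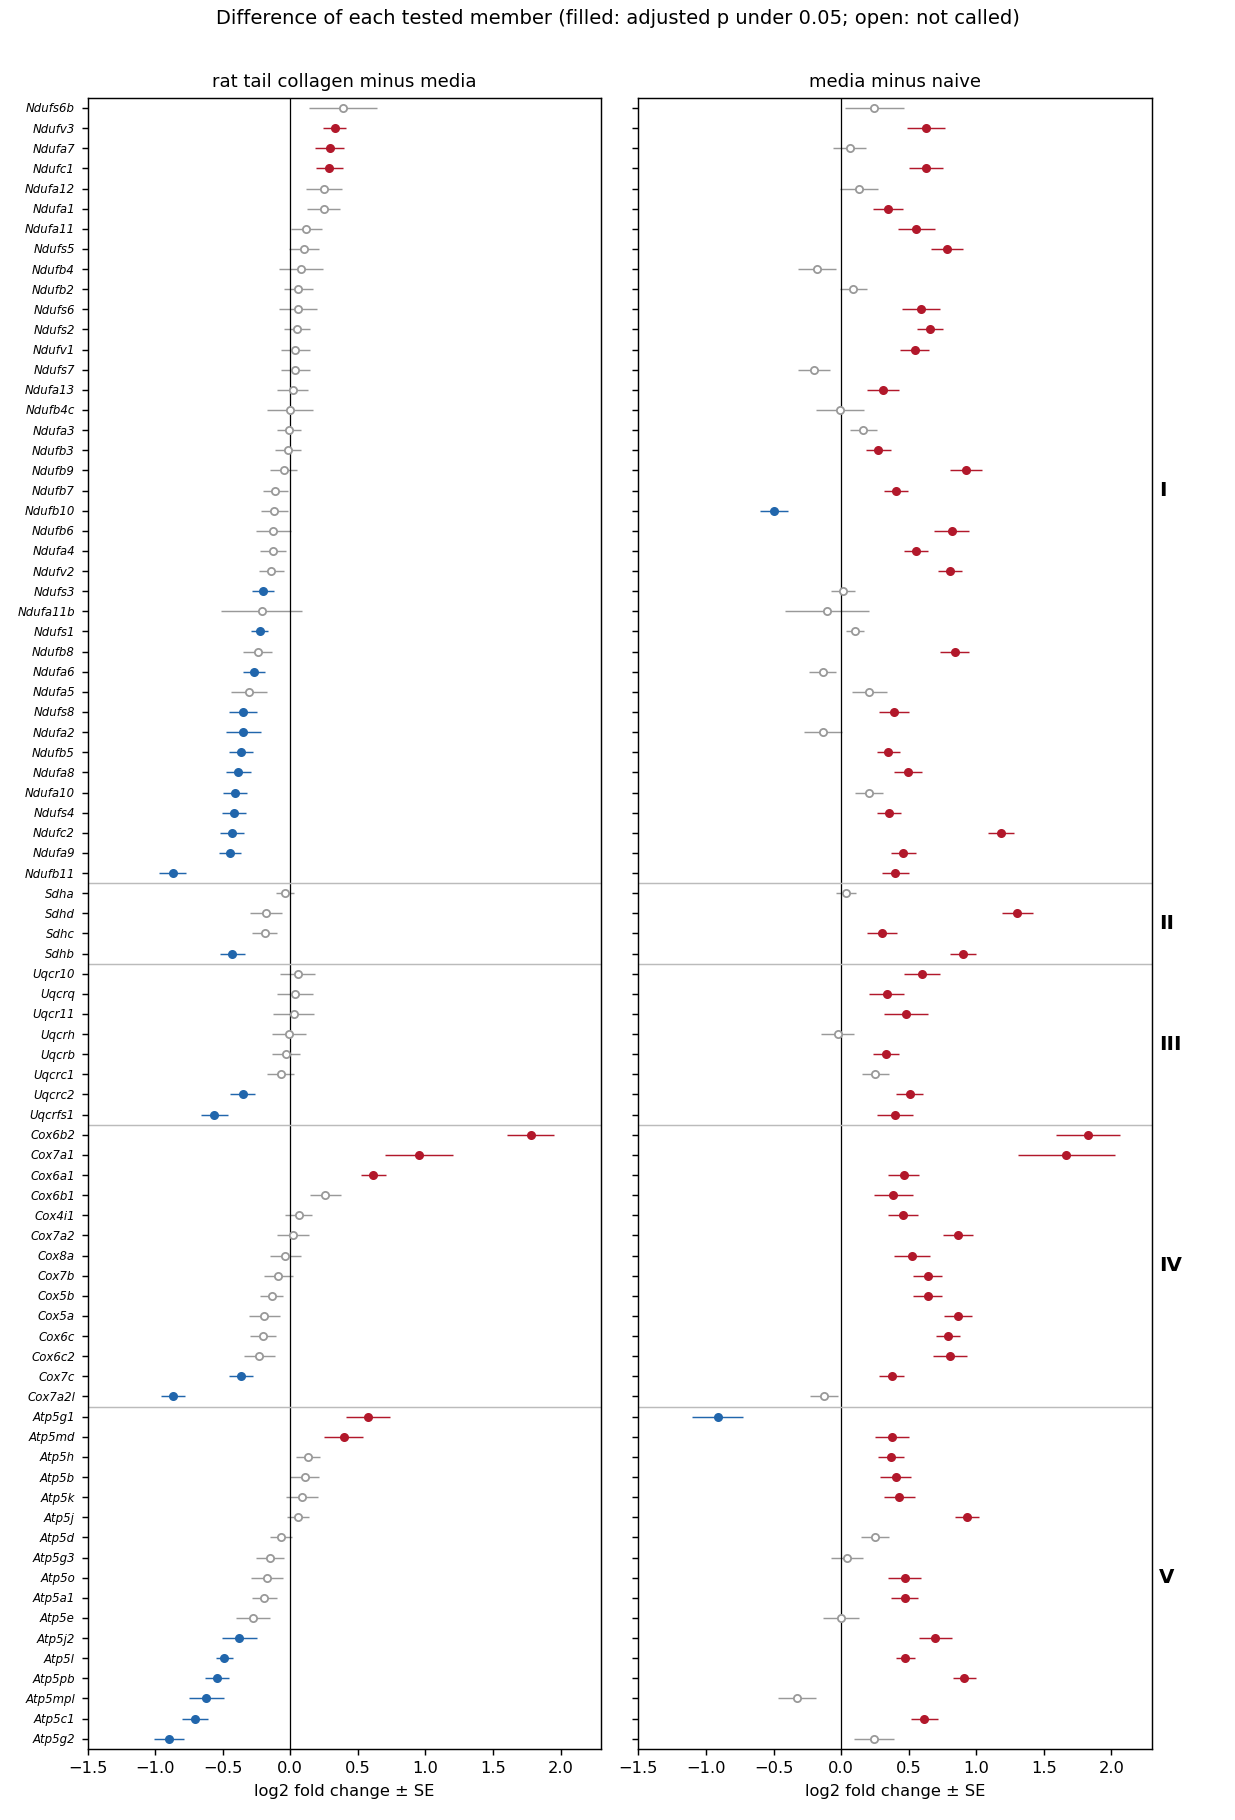
Log2 fold change with its SE for each of the 82 tested members, by complex I to V, in rat tail collagen against media (left) and media against naive cells (right). Filled red points rose, filled blue points fell and open points were not called. The right panel holds 56 red and 2 blue points, and the left panel 8 red and 23 blue.

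No subunit was called in bovine collagen. Against media, 0 members rose and 0 fell, where 0.0206% of all genes rose and 0% fell. DESeq2 and limma-voom also called 0 members, and 2 members had an unadjusted p under 0.05. These 2, named after their values were seen, were Cox6b2 at 0.57 ± 0.18 (log2 fold change ± SE) and Atp5l at -0.22 ± 0.06. Fitted differences of the 82 ran between -0.38 and 0.57 with a median of -0.05 and a median SE of 0.10. These values come from the fit without a replicate block. With the replicate number as a block 0 members were again called, and 7 of all genes rose, against 4 without it. A p that misses the threshold does not show that cells in bovine collagen and in media were alike.

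The gels were also set against each other directly. In rat tail collagen against bovine collagen, 8 members rose and 17 fell of 82, where 28.4% of all genes rose and 26.4% fell. The split changed with scaling: library totals in place of TMM factors gave 14 higher and 7 lower, and offsets for GC content and length gave 8 higher and 33 lower. Those settings moved the median of all genes by 0.14 and -0.17 on the log2 scale. Among all genes library totals gave 6329 higher and 3221 lower, and the offsets 3915 higher and 6750 lower. The count higher was 3 to 5 when bovine collagen replicate 2 or 3, or any rat tail collagen replicate, was left out, and 12 without bovine collagen replicate 1.

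Rat tail collagen cells still held more subunit transcript than naive cells. Of 82 members 47 rose and 11 fell, where 36.5% of all genes rose and 35.4% fell, with a member median of 0.27. Offsets for GC content and length gave 33 higher and 21 lower, and moved the median of all genes by -0.26. Among all genes they gave 5685 higher and 8533 lower. Complex IV had 12 higher and 1 lower of 14, beside 20 and 7 in complex I, 2 and 0 in complex II, 4 and 0 in complex III, and 9 and 3 in complex V.

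In complex I the members were read by module. The N module carries the NADH site, the Q module reduces ubiquinone, and the membrane arm pumps protons. In media against naive cells, 5 of 10 N module members rose and 0 fell, 2 of 5 Q module members rose and 0 fell, and 15 rose and 1 fell of the 20 on the list made up of membrane arm subunits and NDUFA9, which sits where the arms meet. Among all genes 31.6% rose and 29.2% fell in that comparison. In rat tail collagen against media, 2 rose and 4 fell in the N module, 0 rose and 2 fell in the Q module, and 1 rose and 6 fell in the membrane arm list, where 29.7% of all genes rose and 28.7% fell. The modules are small, and these counts are a description of each.

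Ndufb11, an accessory subunit of the membrane arm, had the lowest rat tail collagen values relative to media of any complex I member. It had 34.0, 38.0 and 42.0 CPM in rat tail collagen, 70.8, 59.8 and 62.2 in bovine collagen, 77.1, 67.0 and 62.8 in media, and 50.7, 51.1 and 61.8 in naive cells. All 3 rat tail collagen libraries lay below all 9 others. It fell by 0.87 on the log2 scale against media (SE 0.10, adjusted p = 1.87e-05) and by 0.77 against bovine collagen (adjusted p = 5.68e-05). The gene lies on X at 20615326 to 20617619 (GRCm38, minus strand) and shares exon sequence with Rbm10 on the other strand. Rbm10, with 1.57 times the counts of Ndufb11, fell by 0.27 in the same comparison. The strand setting of the counting is not given in the sources used here, so how reads in the stretch shared by such a pair were counted is not known. The length of the shared stretch was not measured.

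Ndufa9 had 54.0, 52.3 and 55.3 CPM in rat tail collagen, 74.9, 67.1 and 71.4 in bovine collagen, 82.3, 68.4 and 68.0 in media, and 51.6, 53.3 and 61.1 in naive cells. Its rat tail collagen values thus lay within the naive range and below every media value. It fell by 0.45 against media (SE 0.08, adjusted p = 0.000504), and in media it rose by 0.46 over naive cells (adjusted p = 0.00239). Ndufc2, a membrane arm subunit, had 29.9, 29.9 and 27.7 CPM in rat tail collagen, 36.2, 35.2 and 33.0 in bovine collagen, 44.5, 36.7 and 36.1 in media, and 18.2, 17.6 and 18.2 in naive cells. The rat tail collagen, media and naive libraries did not overlap. It rose by 1.18 in media over naive cells (adjusted p = 6.67e-06) and fell by 0.43 in rat tail collagen against media (adjusted p = 0.00121), a call that was lost with offsets for GC content and length (-0.13, adjusted p = 0.288).

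Among complex I members, 3 rose in rat tail collagen against media. Ndufv3, an accessory subunit of the N module, had 67.1, 63.0 and 72.8 CPM in rat tail collagen, 60.9, 55.5 and 51.5 in bovine collagen, 59.2, 52.0 and 49.4 in media, and 32.9, 30.0 and 45.6 in naive cells, and its rat tail collagen libraries lay above all others. It rose by 0.33 against media (adjusted p = 0.00761), which became 0.14 (adjusted p = 0.315) with GC and length offsets. Ndufa7 rose by 0.29 and Ndufc1 by 0.29 against media, and each lost its call when 1 of several libraries was left out. In media against naive cells Ndufb9 rose by 0.93 and Ndufb8 by 0.84, both membrane arm subunits, while neither was called in rat tail collagen against media. Ndufb10, another membrane arm subunit, was the 1 complex I member that fell on activation. It had 28.9, 28.5 and 27.9 CPM in media, against 39.0, 37.2 and 49.6 in naive cells, and a log2 fold change of -0.50 (adjusted p = 0.00269).

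Rat tail collagen cells held 7 of 39 complex I members below naive cells, or 17.9%, where 35.4% of all genes fell. Among them were Ndufa2, Ndufa6, Ndufa10, Ndufs1 and Ndufs3, and log2 fold changes ran from -0.66 for Ndufb10 to -0.17 for Ndufs1. The Ndufs1 and Ndufa10 calls were lost without rat tail collagen replicate 1 or 2 and with library totals in place of TMM factors. The Ndufs1 call was also lost with DESeq2 and with no filter beyond 1 count, and the Ndufs3 call with library totals. Ndufs1, the largest iron-sulfur subunit, had 65.9, 67.5 and 68.8 CPM in rat tail collagen, 79.2, 75 and 76.4 in bovine collagen, 82.1, 77.9 and 75.3 in media, and 74.6, 75.3 and 78.7 in naive cells. Its rat tail collagen values lay below all others by a small margin, with a log2 fold change of -0.23 against media (adjusted p = 0.00677), a call lost with library totals. Ndufs1 overlaps Eef1b2 on the other strand, which held 9.33 times its counts and fell by 0.35 against media and by 0.49 against naive cells. How reads in the shared stretch were counted is not known, and the length of that stretch was not measured. Against naive cells, Ndufs5 rose by 0.83, Ndufc1 by 0.87 and Ndufv3 by 0.91.

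Complex II oxidises succinate and is also the succinate dehydrogenase of the TCA cycle. Its flavoprotein gene Sdha had 202, 207 and 214 CPM in rat tail collagen, 212, 204 and 204 in bovine collagen, 226, 205 and 204 in media, and 207, 213 and 227 in naive cells. These ranges overlapped throughout, and the difference from media was -0.04 ± 0.07 (SE). Sdhb, the iron-sulfur subunit, had 71.1, 71.0 and 75.8 CPM in rat tail collagen, 97.1, 83.2 and 82.4 in bovine collagen, 110, 91.9 and 89.1 in media, and 51.5, 51.9 and 59.2 in naive cells. The rat tail collagen libraries sat between naive cells and the other day 4 groups, without overlap. Sdhb rose by 0.90 in media over naive cells (adjusted p = 4.22e-05) and fell by 0.43 in rat tail collagen against media (adjusted p = 0.00176).

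The membrane anchors moved apart in size. Sdhd had 86.5, 82.5 and 73.4 CPM in rat tail collagen, 101, 87.3 and 80.9 in bovine collagen, 109, 83.2 and 80.9 in media, and 38.5, 36.4 and 40.9 in naive cells. All day 4 libraries stood well above the naive ones, and it rose by 1.30 ± 0.12 in media over naive cells (adjusted p = 1.32e-05), with -0.18 ± 0.12 in rat tail collagen against media, which was not called. Sdhc, the other anchor, rose by 0.30 over naive cells (adjusted p = 0.0428), a call lost without media replicate 1 or 2 or naive replicate 1 or 2 and under most other settings. The Sdhd promoter window is shown as the member with the largest activation rise among those over 5 CPM, at chr9:50603800-50604099 (GRCm38, minus strand). It runs from 250 bases before to 50 after the RefSeq start, and capitals mark matches to the letters GCGCANGCG of NRF1, CCGGAAG of ETS factors and AAGGTCA of ERR, on either strand.
Sdhd: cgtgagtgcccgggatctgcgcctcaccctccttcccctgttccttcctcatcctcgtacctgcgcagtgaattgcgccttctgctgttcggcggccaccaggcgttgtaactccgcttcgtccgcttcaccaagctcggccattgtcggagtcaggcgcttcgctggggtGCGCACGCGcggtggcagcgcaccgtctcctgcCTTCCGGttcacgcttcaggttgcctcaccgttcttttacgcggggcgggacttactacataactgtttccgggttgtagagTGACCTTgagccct

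Complex III passes electrons from ubiquinol to cytochrome c. Its Rieske iron-sulfur subunit gene Uqcrfs1 had 37.8, 40.2 and 42.1 CPM in rat tail collagen, 68.7, 60.2 and 61.5 in bovine collagen, 69.1, 53.9 and 53.1 in media, and 41.7, 42.5 and 55.6 in naive cells. The rat tail collagen libraries lay below all media and bovine collagen libraries and met the naive range. It fell by 0.56 against media (SE 0.10, adjusted p = 0.000479) and by 0.67 against bovine collagen (adjusted p = 0.000146). Uqcrc2, a core subunit, had 120, 118 and 118 CPM in rat tail collagen, 149, 133 and 128 in bovine collagen, 173, 144 and 134 in media, and 105, 111 and 115 in naive cells. The rat tail collagen libraries lay between the naive libraries and all others. It fell by 0.35 against media (adjusted p = 0.00661) and rose by 0.51 in media over naive cells (adjusted p = 0.00167), the second of which was lost with GC and length offsets. The other 6 members lay between -0.07 and 0.06 in rat tail collagen against media, none called. Among them Uqcr10 rose by 0.60 and Uqcr11 by 0.48 in media over naive cells, while Uqcrh was at -0.02. The Uqcr11 call was lost without media replicate 1 or 2 or naive replicate 1 or 2, and with the replicate block.

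**Figure D3:**
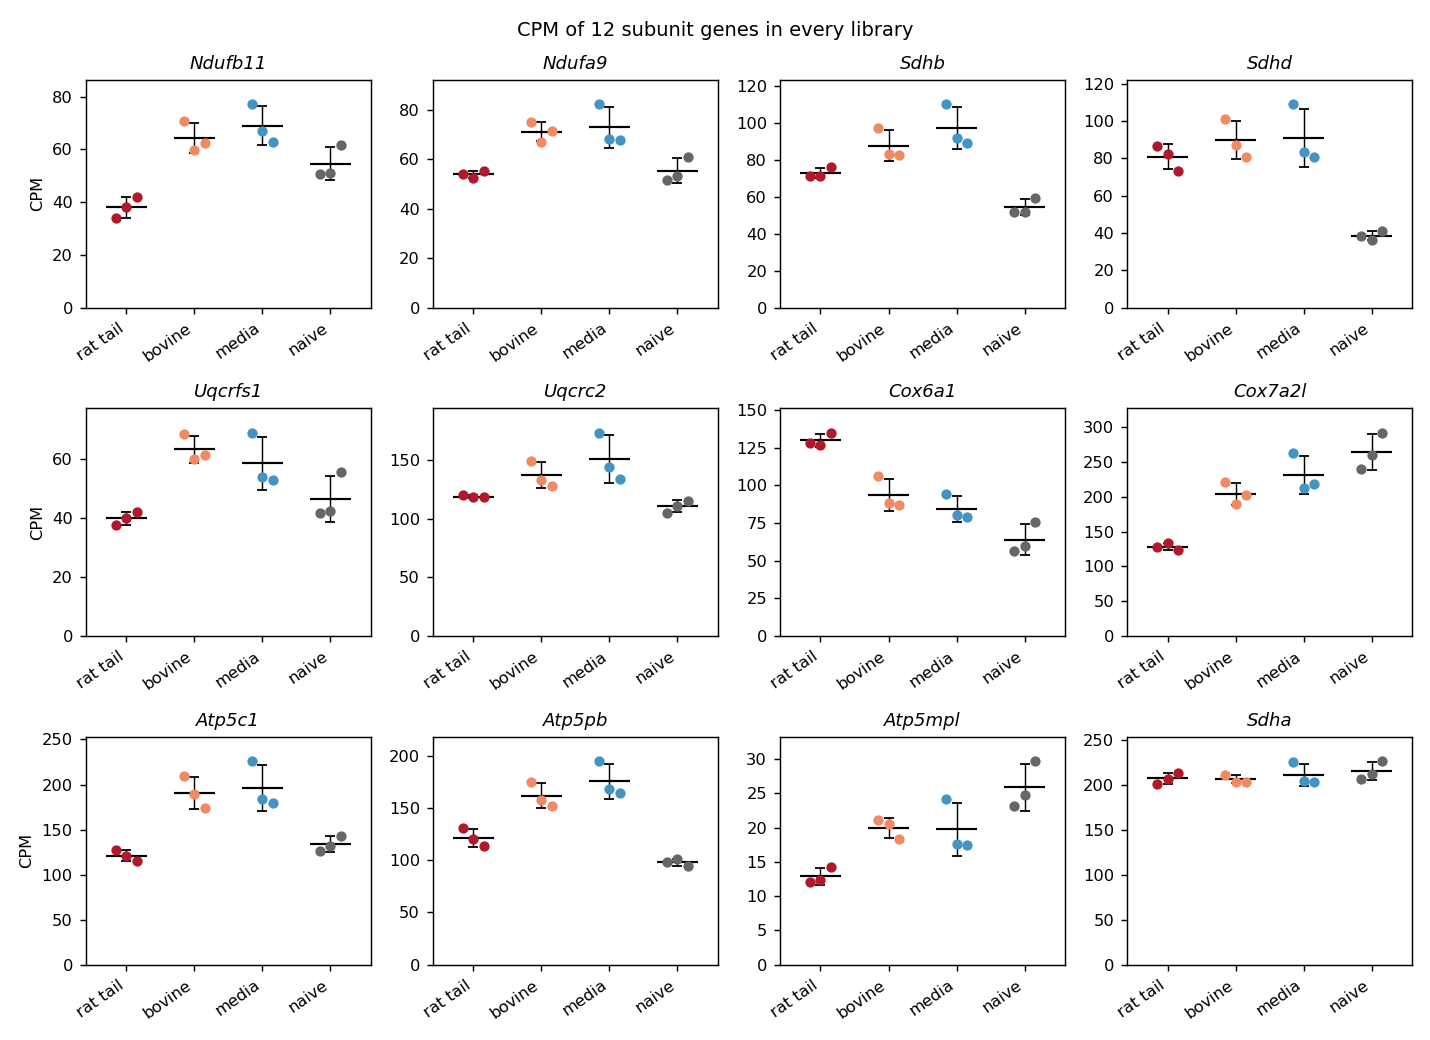
CPM of 12 members in each library of rat tail collagen, bovine collagen, media and naive cells. Points are libraries, the horizontal line is the mean and the bar its SD (n = 3), and each axis starts at 0. Cox7a2l and Ndufb11 are lowest in rat tail collagen, Cox6a1 is highest there, and Sdha is at 202 to 227 CPM in all 12 libraries.

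Complex IV, cytochrome c oxidase, holds most of the paralog pairs that differ between tissues. Cox6a1, the broadly expressed form of subunit 6A, had 128, 127 and 135 CPM in rat tail collagen, 106, 88.3 and 86.9 in bovine collagen, 94.6, 80.1 and 78.8 in media, and 56.7, 59.5 and 75.7 in naive cells. Each rat tail collagen library stood above all 9 others. It rose by 0.61 ± 0.09 against media (adjusted p = 0.000156) and by 1.03 against naive cells (adjusted p = 1.3e-05). With GC and length offsets the rise against media was 0.28 (adjusted p = 0.013), and the call against bovine collagen was lost. The rise in rat tail collagen against naive cells shrank to 0.29 with these offsets (edgeR adjusted p = 0.0137). Its muscle paralog Cox6a2 stayed at or under 0.178 CPM in every library. The Cox6a1 window, at chr5:115348909-115349208 (minus strand), is shown as the most abundant member that rose in rat tail collagen, with NRF1 and ETS letters in capitals.
Cox6a1: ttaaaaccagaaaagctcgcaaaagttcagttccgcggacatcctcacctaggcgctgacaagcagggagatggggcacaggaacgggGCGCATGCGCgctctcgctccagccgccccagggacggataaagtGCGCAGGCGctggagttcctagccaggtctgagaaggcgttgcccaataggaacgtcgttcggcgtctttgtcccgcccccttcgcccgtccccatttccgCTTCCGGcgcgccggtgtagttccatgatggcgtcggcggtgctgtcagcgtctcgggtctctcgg

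Cox6b2, described as the testis form of subunit 6B, held the largest fold change of all tested members. It had 7.72, 7.20 and 6.71 CPM in rat tail collagen, 3.43, 3.37 and 2.52 in bovine collagen, 2.01, 2.45 and 1.82 in media, and 0.578, 0.708 and 0.555 in naive cells. The 4 groups formed 4 separate ranges. It rose by 1.78 ± 0.17 in rat tail collagen against media (adjusted p = 4.75e-06), by 1.21 against bovine collagen (adjusted p = 9.8e-05), and by 1.83 in media over naive cells (adjusted p = 0.000148). Its share of the counts of Cox6b1 and Cox6b2 was 8.17% ± 0.999 in rat tail collagen, 4.29% ± 0.526 in bovine collagen, 3.03% ± 0.544 in media and 1.17% ± 0.361 in naive cells (SD, n = 3, not scaled by gene length). Cox6b1, the common form, held the rest, with 0.26 ± 0.12 in rat tail collagen against media, which was not called.

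Cox7a1, the heart and muscle form of subunit 7A, was low and moved the same way. It had 1.83, 1.42 and 1.51 CPM in rat tail collagen, 1, 0.952 and 0.764 in bovine collagen, 1.09, 0.531 and 0.791 in media, and 0.315, 0.210 and 0.265 in naive cells. It rose by 0.95 ± 0.25 in rat tail collagen against media (adjusted p = 0.00699) and by 1.67 ± 0.36 in media over naive cells (adjusted p = 0.00298). Cox7a2, the common form, rose by 0.87 in media over naive cells and its difference in rat tail collagen against media was 0.02, so that Cox7a1 held 2.06% of the counts of the pair in rat tail collagen, 1.34% in bovine collagen, 1.05% in media and 0.616% in naive cells.

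Cox7a2l, also called SCAFI, encodes a protein that links complexes III and IV in supercomplexes. It had 128, 133 and 123 CPM in rat tail collagen, 221, 190 and 202 in bovine collagen, 263, 213 and 218 in media, and 240, 260 and 292 in naive cells. The rat tail collagen libraries stood far below every other library, and media and naive cells overlapped. It fell by 0.87 ± 0.09 against media (adjusted p = 8.41e-06), by 0.69 against bovine collagen (adjusted p = 5.62e-05) and by 1.04 against naive cells (adjusted p = 1.76e-06). The pseudogene Gm6969, of near-identical sequence, held 18.5% as many counts, and with its counts added the difference from media was -0.86.

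Subunits 4 and 8 have a common form and others that were near 0 in these cells. Cox4i1, the common form of subunit 4, had 217, 223 and 232 CPM in rat tail collagen, 240, 198 and 199 in bovine collagen, 244, 197 and 198 in media, and 150, 153 and 183 in naive cells. It rose by 0.46 in media over naive cells (adjusted p = 0.005) and was at 0.06 ± 0.10 in rat tail collagen against media. Cox4i2, the form linked to low oxygen, had 10, 9 and 8 counts in rat tail collagen, 0, 1 and 0 in bovine collagen, 4, 0 and 0 in media, and 0, 1 and 2 in naive cells. With no filter beyond 1 count it was called in rat tail collagen against media (edgeR adjusted p = 0.00178). Ndufa4l2, another gene linked to low oxygen, had 7, 8 and 6 counts in rat tail collagen, 2, 0 and 0 in bovine collagen, 0, 0 and 2 in media, and 0 in each naive library, and was called under the same setting (adjusted p = 0.00282). It overlaps Shmt2 on the other strand, which held 1800 times its counts and rose by 0.60. Its paralog Ndufa4 was at -0.13 ± 0.10 in rat tail collagen against media and rose by 0.56 in media over naive cells. Cox8a, the common form of subunit 8, rose by 0.52 in media over naive cells, and Cox8b had 1 count in all 12 libraries. With no filter beyond 1 count, Cox6a2 was called lower in rat tail collagen against media (-2.90, edgeR adjusted p = 0.00902). It had 0, 0 and 2 counts in rat tail collagen and 8, 5 and 6 in media. Itgad, which overlaps Cox6a2 on the other strand, held 40.2 times its counts and fell by 1.22.

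**Figure D4:**
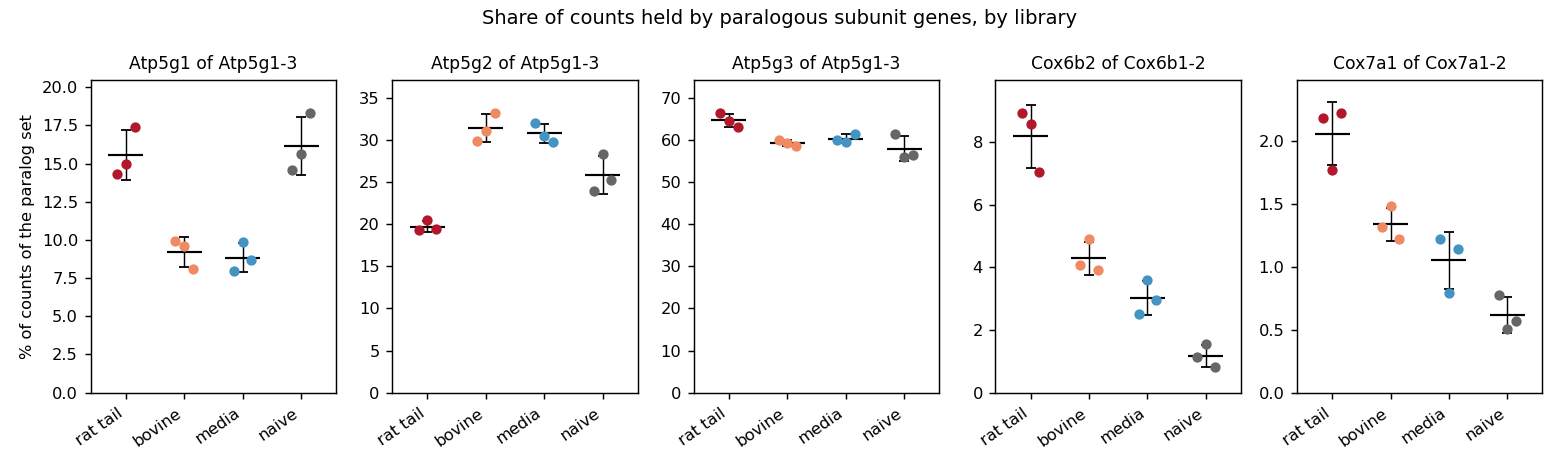
Share of counts held by 1 gene of a paralog set in each library, in percent, for the ATP synthase c subunit genes and for Cox6b2 and Cox7a1. Points are libraries, the line is the mean and the bar its SD (n = 3). Atp5g2 lies at 19.3% to 20.5% in rat tail collagen and at 29.8% to 32.1% in media.

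In complex V, the c ring that turns in the membrane is built from 1 mature protein encoded by 3 genes, Atp5g1, Atp5g2 and Atp5g3, which differ in their import peptides. Atp5g2 had 13.5, 14.9 and 14.5 CPM in rat tail collagen, 29.8, 27.0 and 26.4 in bovine collagen, 31.6, 25.6 and 22.3 in media, and 19.8, 23.1 and 27.3 in naive cells. Its rat tail collagen values lay below all 9 others. Atp5g1 had 10, 10.9 and 13 CPM in rat tail collagen, 9.90, 8.33 and 6.44 in bovine collagen, 7.83, 8.26 and 6.52 in media, and 12.1, 12.7 and 19.7 in naive cells. Its media and naive ranges were apart, and its rat tail collagen range reached into the naive one.

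Atp5g2 fell by 0.90 ± 0.11 in rat tail collagen against media (adjusted p = 4.23e-05) and by 0.96 against bovine collagen (adjusted p = 3.02e-05). With GC and length offsets the difference from media was -1.52. Atp5g1 rose by 0.57 ± 0.16 against media (adjusted p = 0.0103), and it fell by 0.91 in media against naive cells (adjusted p = 0.00251), as the 1 complex V member that did so. Its rise against bovine collagen, 0.45 (adjusted p = 0.037), was lost when any of several libraries was left out and with copies added. The call was also lost in a fit of all 12 libraries and with GC and length offsets (0.28, edgeR adjusted p = 0.192). Atp5g3 was at -0.15 ± 0.10 in rat tail collagen against media, beside 0.04 ± 0.12 in media against naive cells. Of the counts of the 3 genes, Atp5g1 held 15.5% ± 1.61 in rat tail collagen, 9.22% ± 0.980 in bovine collagen, 8.84% ± 0.953 in media and 16.2% ± 1.92 in naive cells. Atp5g2 held 19.7% ± 0.690, 31.4% ± 1.64, 30.8% ± 1.14 and 25.9% ± 2.23 in those groups (SD, n = 3).

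Both genes have processed pseudogenes that may share reads. Gm10175 held 179% as many counts as Atp5g2, and Gm10039 91.3% as many as Atp5g1. With the copies' counts added, the differences from media were -0.90 (adjusted p = 1.44e-05) for Atp5g2 and 0.48 (adjusted p = 0.0405) for Atp5g1. Their RefSeq promoter windows are shown as those of a pair that codes for 1 protein and moved in opposite directions in rat tail collagen, at chr11:96075582-96075881 and chr15:102670998-102671297 (GRCm38, both minus strand). The Atp5g2 window holds the NRF1 letters, in capitals, and the Atp5g1 window none of the motifs searched.
Atp5g1: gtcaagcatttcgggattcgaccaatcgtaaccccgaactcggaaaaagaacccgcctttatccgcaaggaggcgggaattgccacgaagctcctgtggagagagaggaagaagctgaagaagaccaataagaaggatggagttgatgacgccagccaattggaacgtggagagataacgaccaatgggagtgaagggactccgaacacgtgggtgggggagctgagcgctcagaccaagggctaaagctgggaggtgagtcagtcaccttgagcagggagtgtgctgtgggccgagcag
Atp5g2: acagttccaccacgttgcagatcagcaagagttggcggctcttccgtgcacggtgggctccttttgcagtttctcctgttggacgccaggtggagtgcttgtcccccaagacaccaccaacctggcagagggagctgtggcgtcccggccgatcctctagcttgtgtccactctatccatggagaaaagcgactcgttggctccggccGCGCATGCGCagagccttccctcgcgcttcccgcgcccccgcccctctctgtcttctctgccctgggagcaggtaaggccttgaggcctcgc

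Atp5c1, the gamma subunit that forms the shaft of the F1 head, had 127, 121 and 115 CPM in rat tail collagen, 209, 189 and 174 in bovine collagen, 226, 184 and 179 in media, and 126, 132 and 143 in naive cells. It fell by 0.70 against media (adjusted p = 8.75e-05), and its rat tail collagen values overlapped those of naive cells. The other head subunits were not called in that comparison. Atp5a1 (alpha) averaged 495 ± 5.8 CPM in rat tail collagen, 559 ± 57 in bovine collagen, 561 ± 61 in media and 424 ± 36 in naive cells. Atp5b (beta) averaged 721 ± 30, 652 ± 73, 666 ± 96 and 526 ± 52 CPM in those groups (SD, n = 3). Atp5e (epsilon) fell by 0.33 in rat tail collagen against naive cells (adjusted p = 0.00766).

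In the peripheral stalk, which holds the head still, Atp5pb (subunit b) had 131, 120 and 114 CPM in rat tail collagen, 175, 158 and 152 in bovine collagen, 195, 168 and 164 in media, and 98.1, 101 and 94.6 in naive cells. The rat tail collagen values lay between the other groups. Atp5pb rose by 0.91 in media over naive cells (adjusted p = 1.81e-05) and fell by 0.54 in rat tail collagen against media (adjusted p = 0.000272). Atp5j (F6) had 61.6, 58.9 and 70.2 CPM in rat tail collagen, 60.7, 66.5 and 59.5 in bovine collagen, 62.3, 57.0 and 62.4 in media, and 31.8, 36.7 and 30.8 in naive cells. It rose by 0.93 in media over naive cells (adjusted p = 2e-05) and was at 0.06 ± 0.08 in rat tail collagen against media. Gabpa, which overlaps Atp5j on the other strand with 1.42 times its counts, rose by 0.48 over naive cells.

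Of the small membrane subunits, Atp5mpl had 12, 12.4 and 14.3 CPM in rat tail collagen, 21.1, 20.5 and 18.3 in bovine collagen, 24.2, 17.6 and 17.4 in media, and 23.2, 24.7 and 29.7 in naive cells. It fell by 0.62 against media (adjusted p = 0.00148) and by 1.0 against naive cells (adjusted p = 2.36e-05), and was not called on activation. Atp5md (DAPIT) had 26.7, 24.5 and 25.5 CPM in rat tail collagen, 22, 15.5 and 15.3 in bovine collagen, 23.0, 18.1 and 16.7 in media, and 15.2, 16.4 and 14.8 in naive cells. It rose by 0.40 against media (adjusted p = 0.0335), a call lost without media replicate 2 or 3 or any rat tail collagen replicate. Its overlap partner Taf5, on the other strand, fell by 0.32. The pseudogene Gm14539, of near-identical sequence, held 57.4% as many counts as Atp5md. The fitted differences of Atp5md and Atp5mpl had opposite signs in rat tail collagen against media.

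Related lists were counted in the same way. Of the 13 mitochondrially encoded subunits, 6 rose and 0 fell in rat tail collagen against media (median 0.37), and 0 rose and 3 fell in media against naive cells (median -0.24). Among all genes 29.7% rose and 28.7% fell in the first comparison, and 31.6% and 29.2% in the second. Both medians had the opposite sign to those of the nuclear-encoded members, -0.10 and 0.40, a comparison that was not tested. The nuclear-encoded median of -0.10 depended on single libraries, at -0.02 without media replicate 1 and -0.15 without media replicate 3. With library totals in place of TMM factors it was -0.05. mt-Co1, a core subunit of complex IV, averaged 5130 CPM in rat tail collagen, 3730 in bovine collagen, 2800 in media and 3250 in naive cells, and rose by 0.87 against media (edgeR adjusted p = 0.00073). mt-Co2 rose by 0.61 and mt-Cytb by 0.47, and both fell in media against naive cells, by 0.38 and by 0.34. Summed mitochondrial levels varied between libraries, at 19500, 19500 and 14500 CPM in rat tail collagen and 12100, 12600 and 14400 in media, so the lowest rat tail collagen library stood only just above the highest media library.

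**Figure D5:**
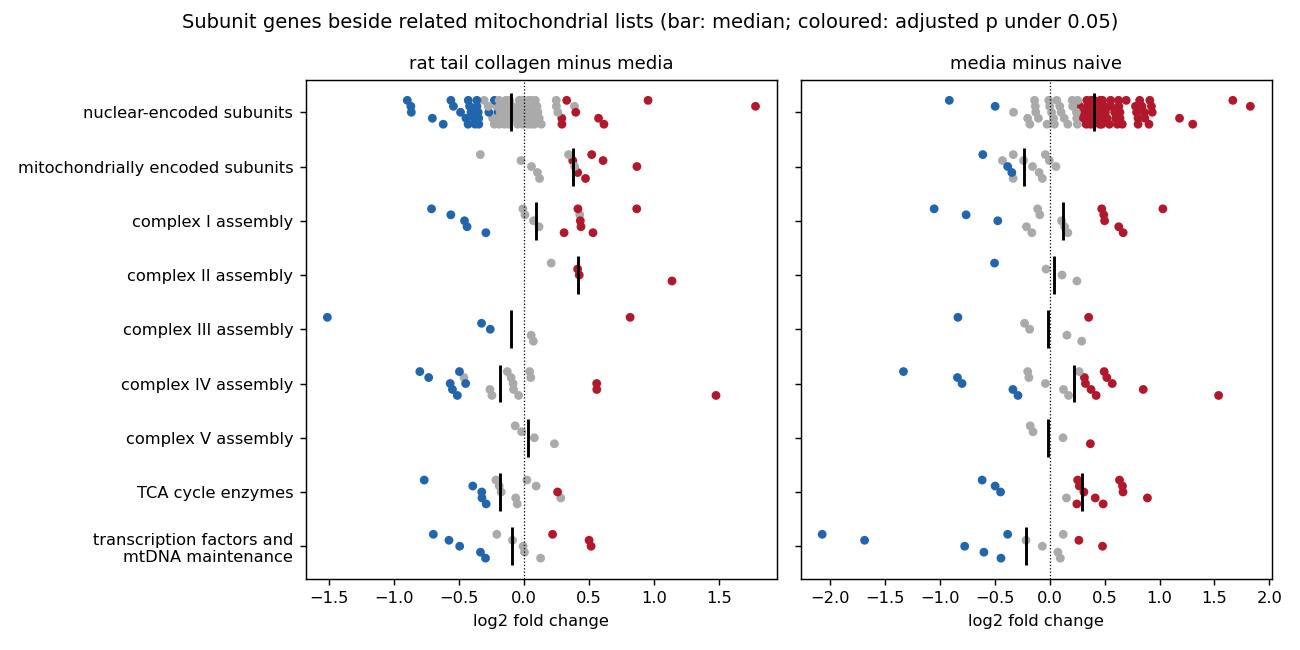
Log2 fold change of nuclear-encoded subunits, mitochondrially encoded subunits, assembly factors of complexes I to V, TCA cycle enzymes and transcription factors, in rat tail collagen against media (left) and media against naive cells (right). Each point is a gene, red rose, blue fell and grey was not called, and the bar is the list's median. The mitochondrially encoded median is at 0.37 on the left and -0.24 on the right.

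Assembly factors were called in both directions, as were all genes, of which 29.7% rose and 28.7% fell. In rat tail collagen against media, complex I factors had 6 higher and 5 lower of 16, complex II 3 higher and 0 lower of 4, complex III 1 higher and 3 lower of 6, complex IV 3 higher and 7 lower of 20 and complex V 0 of 4 in either direction. Sdhaf1, which helps place the iron-sulfur clusters of SDHB, rose by 1.14 (adjusted p = 5.4e-05) while Sdhb itself fell. Sdhaf2, needed for the flavin of SDHA, rose by 0.42. Lyrm7, a chaperone of the Rieske protein, fell by 1.51 (adjusted p = 5.3e-05), and Uqcrfs1 fell by 0.56. Ttc19 rose by 0.81 and Uqcc3 fell by 0.33. Cox17, which carries copper to complex IV, averaged 49.1 CPM in rat tail collagen, 17.8 in bovine collagen, 17.5 in media and 13.0 in naive cells, and rose by 1.47 against media (adjusted p = 8.8e-08). Cox10, the haem O synthase, fell by 0.73 and Surf1 by 0.51. Ndufaf1 rose by 0.87, while Tmem126a fell by 0.71 and Tmem186 by 0.56.

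In media against naive cells, complex I factors had 6 higher and 3 lower, complex II 0 and 1, complex III 1 and 1, complex IV 9 and 5, and complex V 1 and 0, where 31.6% of all genes rose and 29.2% fell. Cmc2 rose by 1.54 and Surf1 by 0.57, Tmem126a rose by 0.63, Cox14 fell by 0.80, Ndufaf4 by 1.05 and Ecsit by 0.76. Of 14 TCA cycle enzymes, 10 rose and 3 fell on activation, with Fh1 (fumarase) up by 0.89 and Dld by 0.67 and with Dlst down by 0.61. In rat tail collagen against media, 1 rose and 5 fell, or 7.14% and 35.7%, where 29.7% of all genes rose and 28.7% fell. Those that fell included Idh3g at -0.77, Idh2 at -0.39 and Idh3b at -0.32. Among the cytochrome c group, Ndufab1, the acyl carrier protein of complex I, rose by 0.60 in rat tail collagen against media, and Atpif1, the inhibitor of ATP synthase, rose by 2.29 in media over naive cells.

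Of 13 tested genes that act in transcription of subunit genes or upkeep of mitochondrial DNA, 3 rose and 5 fell in rat tail collagen against media, or 23.1% and 38.5%, where 29.7% of all genes rose and 28.7% fell. Nrf1 fell by 0.49, and Tfam, which packages mitochondrial DNA, averaged 36.6 CPM in rat tail collagen, 56.9 in bovine collagen, 59.0 in media and 51.2 in naive cells and fell by 0.70 (adjusted p = 1.7e-06). Twnk, the mitochondrial helicase, rose by 0.51. In media against naive cells 2 rose and 6 fell, or 15.4% and 46.2%, where 31.6% of all genes rose and 29.2% fell. The coactivator genes Ppargc1b and Pprc1 fell by 2.07 and by 1.68, and Polrmt, the mitochondrial RNA polymerase, fell by 0.77.

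Promoter windows were searched for motifs of factors known for subunit genes, on both strands and in 300 bases around each RefSeq start. RefSeq windows were matched for 68 of the 84 protein-coding members. The NRF1 letters were in 29.4% of the matched members and in 9.63% of 17492 protein-coding genes with a window. The ETS letters CCGGAAG were in 25.0% and 12.9%, ATGGCGG of YY1 in 14.7% and 6.05%, AAGGTCA of ERR in 11.8% and 4.73%, and TGACGTCA of CRE factors in 5.88% and 2.54%. NRF1 letters were in 1 of 8 members that rose in rat tail collagen against media, 5 of 19 that fell and 14 of 39 that were not called. A match describes letters only, and these groups are too small to be read as an order.

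Called members were also set beside gene features. The median exon length was 1662 bases in the 8 members that rose in rat tail collagen against media, 1908 in the 23 that fell and 1550 in the 47 protein-coding members not called, and the median GC content was 50.3%, 50% and 50.3%. Across 78 protein-coding members, the log2 fold change had a Spearman rho of -0.20 with exon length and 0.18 with GC content, a description over genes that share libraries.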

How the data were processed

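RNA of 12 libraries (4 groups of 3) was depleted of ribosomal RNA with a RiboCop kit and made into libraries with a KAPA RNA HyperPrep kit, per the labels' protocols. The authors deposited 1 table of read counts per gene symbol, not normalized. FastQC, MultiQC, HISAT2, SAMtools, Picard, featureCounts and the builds GRCm38 and mm10 are named in the submitters' processing notes, with no version, annotation or strand setting (not given in the sources used here). From the counts, edgeR 4.0.16 (R 4.3.3) gave TMM factors, CPM and quasi-likelihood tests with filterByExpr and Benjamini-Hochberg adjustment over all genes tested, in the 9 day 4 libraries for comparisons among them and in the 6 libraries compared for those with naive cells. The test was checked on simulated data, in fits of only the libraries compared. Of simulated 1.5-fold changes it recovered 47% in media against naive cells and 58% to 62.7% in the other comparisons. Of 2-fold changes it recovered 73.7% in media against naive cells and 89.9% to 94.8% in the others. Alternatives used DESeq2 1.42.0, limma 3.58.1, other scalings and filters, offsets for GC content and length, a replicate block and each library left out. Adding the counts of pseudogenes with at least 95% identity over 75 bases was chosen after seeing the data. Gene positions come from GENCODE M21, and promoter windows from RefSeq (GRCm38.p6). Members and lists were chosen with earlier results of these data known. Genes were named by comparison. They were drawn from the 3 members per complex with the largest called log2 fold change and a mean of 5 CPM or more. Members called against the majority, the paralog sets, and in each related list up to 3 genes of smallest adjusted p were added. Cox5a, Cox6c2, Ndufb5 and Uqcrq met the rule without a value given here, and some others have one in only part of the comparisons. Beyond this rule the other complex III members, the F1 head subunits and a few more are given as values.

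Whether replicate numbers pair libraries was checked by the correlation of same-numbered libraries' deviations from their group means. It was 0.646, 0.140 and 0.702 for bovine collagen and media, over 0.1 in each pair, although the labels name no shared mouse. The values printed for that comparison are from the fit without the block, and the fit with it, an alternative, also called 0 members. In every other comparison at least 1 pair was at or under 0.1. Depth sets the precision of low members such as Cox4i2, where a few counts decide a value.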

Additional observations from a re-analysis of the deposited data

How the results depend on the processing

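Numbers of called members are given as higher and lower, and the cause of the shifts was not tested. Offsets for GC content and length gave 15 higher in rat tail collagen against media, 33 lower in rat tail collagen against bovine collagen, 4 lower in media against naive cells and 21 lower in rat tail collagen against naive cells, and with the replicate block added 17, 34, 4 and 24. Among all genes the offsets gave 4710 higher and 5974 lower, 3915 and 6750, 5228 and 6701, and 5685 and 8533 in those comparisons. With the block added they gave 5101 and 6299, 4238 and 7104, 4994 and 6425, and 5863 and 8757. The replicate block alone gave, in rat tail collagen, 10 and 30 against media and 10 and 20 against bovine collagen, with 50 and 2 in media against naive cells, 47 and 14 in rat tail collagen against naive cells, and 0 and 0 in bovine collagen against media. Among all genes the block gave, in that order, 6115 and 5955, 5864 and 5538, 5434 and 4973, 7263 and 7058, and 7 and 0. In rat tail collagen against bovine collagen, library totals gave 14 and 7 and a fit of all 12 libraries 5 higher. Among all genes library totals gave 6329 and 3221, and the fit of all 12 libraries 5627 higher. Without the 3 libraries of highest rRNA share (rat tail collagen replicates 1 and 3 and bovine collagen replicate 2), 2 and 10 were left against media and 1 and 6 against bovine collagen, where 1 rat tail collagen library was assumed to vary like the rest. Leaving out each library gave 5 to 11 higher and 20 to 27 lower in rat tail collagen against media, 3 to 12 and 13 to 22 against bovine collagen, 45 to 57 and 2 to 5 in media against naive cells, and 36 to 50 and 9 to 14 in rat tail collagen against naive cells. Among all genes the first 2 ran at 5150 to 6096 and 4836 to 5689, and 4872 to 5943 and 4474 to 5528. The comparisons with naive cells ran at 5160 to 5827 and 4826 to 5508, and 6773 to 7208 and 6118 to 6845. With no filter beyond 1 count, 33 were lower in rat tail collagen against media, where 6107 of all genes were lower. Cox4i1 in rat tail collagen against bovine collagen turned to -0.29 under GC and length offsets (also with the replicate block), Ndufv3 to -0.01 under both, and Sdhc in rat tail collagen against naive cells to -0.21 with offsets and block. Of the 25 named members called in rat tail collagen against media, 20 kept the call in every leave-one-out fit, 16 also under every other setting but the rRNA one, and 12 of all 31 called were still called without the 3 libraries. Outside bovine collagen and media, at least 1 same-numbered pair of each comparison had a correlation at or under 0.1. These correlations cannot show whether libraries share a mouse.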
